A study of Mus musculus with 4 samples.

Results

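A set of 10 primitive endoderm genes were followed through the RNA-seq counts of WT and Pim3-/- ESCs: Gata4, Gata6, Sox17, Sox7, Foxa2, Hnf4a, Dab2, Pdgfra, Amn and Cubn. They are 10 of the 55418 genes in the table and were picked by name, with results of these same libraries known, so the difference between WT and Pim3-/- ESCs is given for them as a description without a test. All 10 were found in the table, and 9 of them passed the filter on low counts, Foxa2 being the exception. The study asked which transcripts change when Pim3, a serine/threonine kinase gene, is deleted. The control group was WT ESCs, with 2 libraries, and the other Pim3-/- ESCs made with CRISPR/Cas9, with 1 library from each of 2 clones. All cells were of the mouse line E14, with the strain given as 12910la, and were kept on gelatin in medium with serum and LIF. Each Pim3-/- library is a single clone, so an effect of the genotype cannot be told apart from differences between clones.

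The primitive endoderm is the epithelium that forms on the surface of the inner cell mass and later gives rise to the visceral and parietal endoderm of the yolk sacs. FGF4 from epiblast precursors drives neighbouring cells towards this fate through the ERK pathway, GATA6 and NANOG mark the opposing fates, and GATA4, SOX17 and SOX7 follow GATA6. In serum and LIF, ESC cultures are known to hold rare cells that express these genes. In bulk RNA, fewer cells of a type and less RNA per cell cannot be told apart.

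The libraries held 22029427 to 25668307 counts on genes. Pim3 had 4392 and 4953 counts in the WT libraries against 4970 and 4804 in the libraries labelled Pim3-/-, a log2 fold change of -0.27 (SE 0.17, adjusted p = 0.251 in edgeR's test), and 0.19 when scaled by library totals. SE is the standard error. The edits are small changes of bases at the guide sites within exons, so this count does not check the labels. The ESC identity was plain, with Pou5f1, which encodes OCT4, at 998 CPM per kb of exons and Nanog at 419 in WT ESCs. CPM are read counts relative to library size, scaled with TMM factors, a method that centres the bulk of the genes. Scaling by library totals instead moved the median log2 fold change of all tested genes from 0.07 to 0.52, and this shift of 0.449 applies to every fold change below.

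Regulatory sequence is shown for 4 of the genes. Amn and Cubn encode the chains of one receptor, and Amn was even between the Pim3-/- clones while Cubn was not, so the bases before the starts of both are shown whole. The upstream window of Amn (chr12:111270846-111271094, plus strand) had 11 CpG sites and 61.0% G and C, and that of Cubn (chr2:13491877-13492126, minus strand) 2 CpG sites and 39.6%. The median over all 250-base windows before RefSeq starts was 6 CpG sites and 52.4%. Foxa2 and Hnf4a were chosen because a window of each held AGATAA, a sequence that GATA factors bind, which is set in capitals. The Foxa2 window (chr2:148045465-148045714, minus strand) lies before an internal start and outside annotated exons, with the match 183 bases before that start. For Hnf4a, 30 bases around its match are given (chr2:163506793-163506822, plus strand), of which 15 lie in the first exon of a GENCODE transcript. The sequences run 5' to 3' and are from RefSeq on GRCm38.p6.
Amn: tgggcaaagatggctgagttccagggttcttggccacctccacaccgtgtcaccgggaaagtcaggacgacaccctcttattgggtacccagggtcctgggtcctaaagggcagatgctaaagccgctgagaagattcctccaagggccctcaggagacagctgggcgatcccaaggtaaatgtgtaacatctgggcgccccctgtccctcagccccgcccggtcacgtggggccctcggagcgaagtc
Cubn: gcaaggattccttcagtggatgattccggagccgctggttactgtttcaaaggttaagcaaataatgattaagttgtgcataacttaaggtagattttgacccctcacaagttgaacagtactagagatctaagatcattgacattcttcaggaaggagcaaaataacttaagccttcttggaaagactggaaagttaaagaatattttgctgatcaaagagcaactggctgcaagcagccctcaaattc
Foxa2: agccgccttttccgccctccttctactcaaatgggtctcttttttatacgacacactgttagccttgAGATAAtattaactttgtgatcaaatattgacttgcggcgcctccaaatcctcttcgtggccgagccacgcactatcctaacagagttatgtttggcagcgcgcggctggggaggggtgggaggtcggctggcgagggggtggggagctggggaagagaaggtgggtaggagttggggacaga
Hnf4a: gaagaatcaataAGATAAccgggcggggtg
Promoter sequences were matched for 6 of the 10 genes, in 10 windows. AGATAA or its reverse complement occurred in 2 of these 10 windows and in 9.99% of all 32817. ACAATG (SOX factors), TGTTTAC (forkhead factors) and CAAAGTCCA (HNF4), on either strand, occurred in none of the 10 and in 10.7%, 3.16% and 0.384% of all windows. A match is a description of letters, and its absence says nothing about the factor.

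All of the 10 genes were scarce in WT ESCs. Added up, they reached 5.95 and 8.87 CPM in the WT libraries against 55.6 and 36.7 CPM in the Pim3-/- libraries. The 9 tested genes had log2 fold changes of 1.55 to 5.27 with a median of 3.16 (the highest, of Sox7, depends on the prior count of the fit because WT ESCs held 3 counts), beside a median of 0.07 for all 18444 tested genes. Scaled by library totals, the medians were 3.59 and 0.52. In 8 of the 9, both Pim3-/- libraries lay above both WT libraries in CPM, which holds for 38.3% of all tested genes. Scaled by library totals this held for all 9, and for 58.3% of all tested genes. Of all tested genes 33.8% were called in either direction at an adjusted p under 0.05 in edgeR's test. Called higher were 17.6%, with 8.47% at least 3-fold higher, and 35.8% were called higher when scaled by library totals. Since the 10 genes were chosen with these values in view, their own calls are not given, and nothing is read from how many of them did not overlap.

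**Figure D1:**
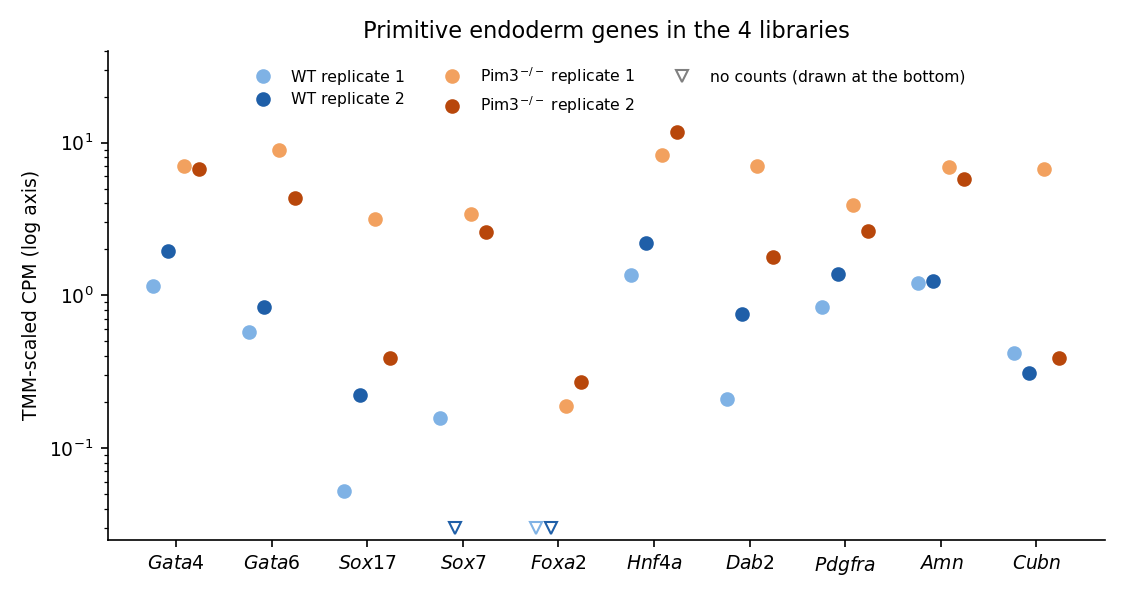
TMM-scaled CPM (log axis) of the 10 primitive endoderm genes, 1 point per library, with libraries without counts drawn as open triangles at the bottom. Both Pim3-/- points lie above both WT points for each gene but Cubn, where Pim3-/- replicate 2, at 0.387 CPM, lies between the WT libraries at 0.309 and 0.417 CPM.

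Counts below are given for replicate 1 and then replicate 2 of each group. Gata4 and Gata6 encode zinc finger factors that are sufficient to turn ESCs into primitive endoderm. Gata4 (chromosome 14, 63198922 to 63271692) was counted 22 and 44 times in WT against 187 and 173 times in Pim3-/- ESCs, or on average 1.54 ± 0.561 against 6.85 ± 0.208 CPM (SD, n = 2 each). Its log2 fold change was 2.14 (SE 0.35), and both clones stood alike. Gata6 (chromosome 18, 11052064 to 11085635) was counted 11 and 19 times in WT against 240 and 112 times in Pim3-/- ESCs, on average 0.706 ± 0.187 against 6.66 ± 3.28 CPM (SD, n = 2 each). Here the log2 fold change was 3.22 (SE 0.47), with Pim3-/- replicate 1 at 2.07 times the level of replicate 2. The gene 1010001N08Rik overlaps Gata6 on the opposite strand and had 0, 2, 21 and 5 counts in WT replicates 1 and 2 and Pim3-/- replicates 1 and 2. Whether strand was used in counting is not given in the sources used here, so reads of such pairs cannot be told apart.

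Sox17 and Sox7 encode factors of the SOXF group, which act after the GATA factors in the specification and maturation of the primitive endoderm. Sox17 (chromosome 1, 4490931 to 4497354) was counted 1 and 5 times in WT against 85 and 10 times in Pim3-/- ESCs. Its CPM was 0.136 ± 0.119 (SD, n = 2) against 1.78 ± 1.98 (SD, n = 2), so that most of the difference lay in Pim3-/- replicate 1. The log2 fold change was 3.61 (SE 1.11), and without that library 1.39. Sox7 (chromosome 14, 63943673 to 63950732) was counted 3 and 0 times in WT against 91 and 67 times in Pim3-/- ESCs, or on average 0.0782 ± 0.111 against 3.001 ± 0.572 CPM (SD, n = 2 each). The ratio of its pooled counts, scaled for depth, was 42.0 (95% exact interval 14.1 to 206, counting error only), and unlike Sox17 it was similar in both clones. Sox7 lies 671981 bases from Gata4 on the same chromosome.

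Foxa2 and Hnf4a encode a forkhead factor and a nuclear receptor that regulate genes of the visceral endoderm and, later, of the liver. Foxa2 (chromosome 2, 148042877 to 148046969) had no counts in either WT library and 5 and 7 counts in the Pim3-/- libraries. Against 3 counts per WT library, the limit that a count of 0 allows, its mean was 1.59-fold higher. This value was 1.30 with Pim3-/- replicate 1 alone and 1.88 with replicate 2 alone. It leaves out the counting error of the Pim3-/- libraries, and Foxa2 was too low for the test. Hnf4a (chromosome 2, 163506808 to 163572910) had the highest mean CPM of the 10 in both groups, at 26 and 50 counts in WT against 221 and 305 in Pim3-/- ESCs. That is an average of 1.78 ± 0.601 against 10.0 ± 2.51 CPM (SD, n = 2 each), a log2 fold change of 2.48 (SE 0.35). Among the tested genes it was the single one with a higher level in Pim3-/- replicate 2 than in replicate 1.

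Pdgfra encodes a receptor of platelet-derived growth factors that is an early surface marker of the lineage. On chromosome 5 (75152292 to 75198215), it was counted 16 and 31 times in WT against 104 and 68 times in Pim3-/- ESCs. Its level averaged 1.10 ± 0.377 against 3.26 ± 0.889 CPM (SD, n = 2 each), and its log2 fold change of 1.55 (SE 0.42) was the lowest of the 9. It stood just under 3-fold, and without WT replicate 1 the log2 fold change was 1.20. The groups did not overlap.

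Amn, Cubn and Dab2 belong to the endocytic apparatus of the visceral endoderm. Amnionless anchors cubilin in the membrane, and DAB2 is a clathrin adaptor that couples the receptors LRP2 and cubilin to uptake. Amn (chromosome 12, 111271095 to 111276426) was counted 23 and 28 times in WT against 184 and 149 times in Pim3-/- ESCs, or on average 1.22 ± 0.0251 against 6.33 ± 0.787 CPM (SD, n = 2 each). Its log2 fold change of 2.37 (SE 0.32) was the most even, between 2.22 and 2.48 with 1 library left out. Dab2 (chromosome 15, 6299788 to 6440712) was counted 4 and 17 times in WT against 189 and 46 times in Pim3-/- ESCs. The levels averaged 0.479 ± 0.383 against 4.43 ± 3.74 CPM (SD, n = 2 each), with a log2 fold change of 3.16 (SE 0.79), and 1.82 without Pim3-/- replicate 1. Cubn (chromosome 2, 13276338 to 13491813) was counted 8 and 7 times in WT against 180 and 10 times in Pim3-/- ESCs, or on average 0.363 ± 0.0767 against 3.56 ± 4.49 CPM (SD, n = 2 each). Its log2 fold change of 3.29 (SE 1.16) rested on 1 library, and without Pim3-/- replicate 1 it was 0.09. Gm13270, which overlaps Cubn on the opposite strand, had 1, 2, 19 and 5 counts.

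**Figure D2:**
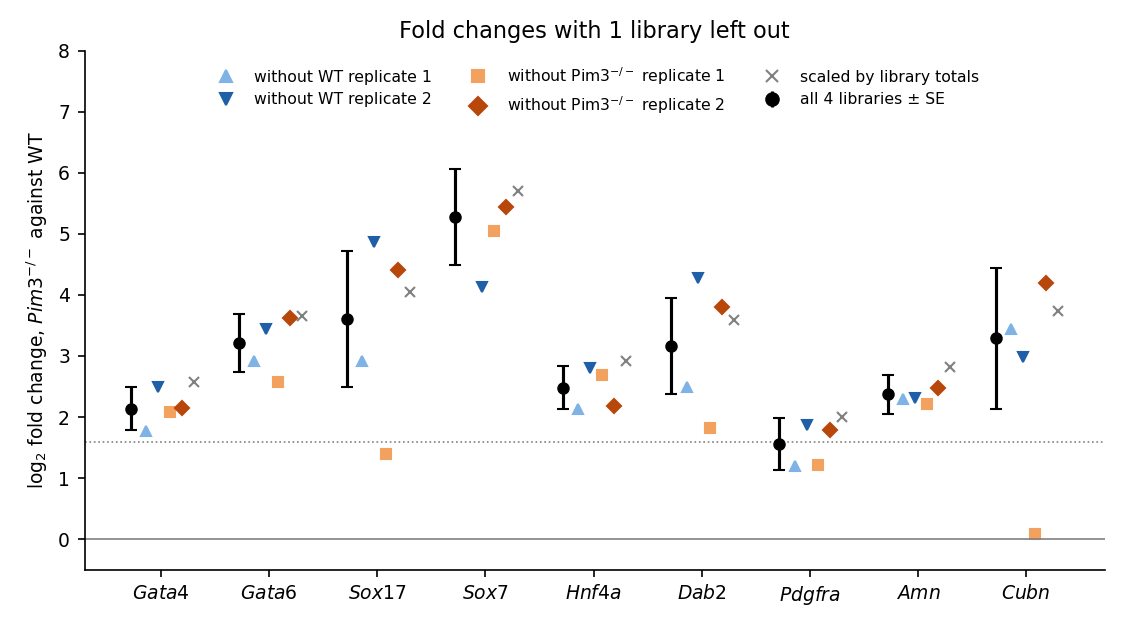
Log2 fold change of Pim3-/- against WT ESCs for the 9 tested genes, with all 4 libraries (black, bars are standard errors), with each library left out, and scaled by library totals; the solid line marks 0 and the dotted line 3-fold. Without Pim3-/- replicate 1, Cubn falls to 0.09, Sox17 to 1.39 and Dab2 to 1.82, while Amn is at 2.22 or above and Gata4 at 1.76 or above throughout. The value of Sox7 without WT replicate 1 is not drawn, because the other WT library had no counts.

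The Pim3-/- clones differed in the level of some of the genes. The ratio of replicate 1 to replicate 2, scaled for depth, was 17.4 for Cubn (95% exact interval 9.24 to 36.9), 8.21 for Sox17 (4.25 to 17.7), 3.97 for Dab2 (2.86 to 5.60) and 2.07 for Gata6 (1.65 to 2.61). It was 1.48 for Pdgfra (1.08 to 2.04) and 0.700 for Hnf4a (0.586 to 0.835). For Gata4, Amn, Sox7 and Foxa2 the interval held 1, with ratios of 1.04, 1.19, 1.31 and 0.690. These intervals cover counting error only and compare 2 libraries, not conditions. In the WT libraries Dab2 differed as well, with 4 counts in replicate 1 and 17 in replicate 2, a ratio of 0.278 scaled for depth. This ratio was 0.236 for Sox17, 0.591 for Gata4, 0.610 for Pdgfra, 0.615 for Hnf4a and 0.685 for Gata6. It was 0.971 for Amn and 1.35 for Cubn, and Sox7 had 3 counts in WT replicate 1 and 0 in WT replicate 2.

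**Figure D3:**
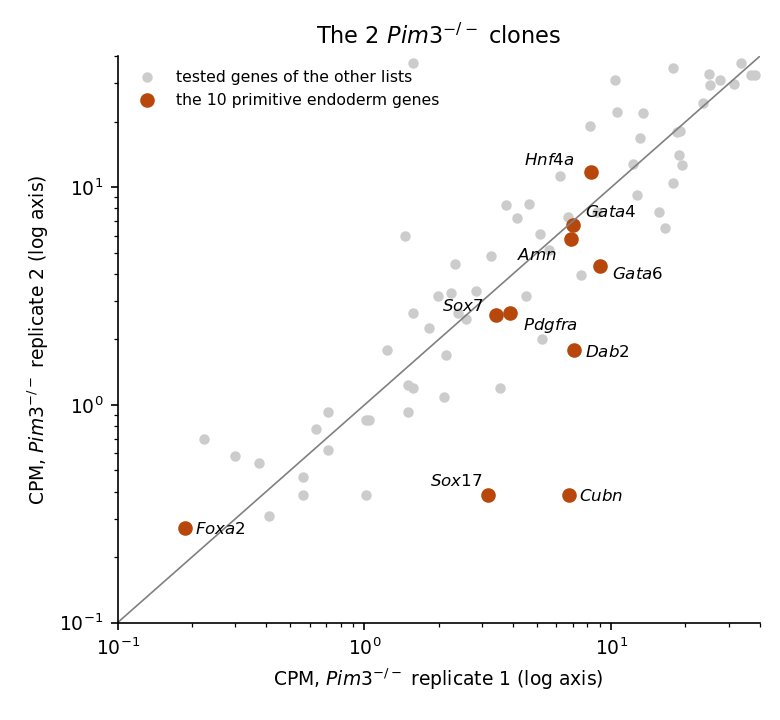
CPM of each gene in Pim3-/- replicate 1 against replicate 2 (log axes), with the 10 primitive endoderm genes in red and the tested genes of the other lists in grey; the line marks equal levels, and genes above 40 CPM lie outside the axes. Cubn and Sox17, both at 0.387 CPM in replicate 2, sit farthest below the line, and Hnf4a lies above it.

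To compare levels between genes, CPM were divided by the length of all annotated exons of the gene. In WT ESCs Amn was highest, at 0.661 CPM per kb ± 0.0136 (SD, n = 2), followed by Gata4 at 0.396 ± 0.144 and Hnf4a at 0.369 ± 0.124, which overlapped each other. Pdgfra and Gata6 came next at 0.110 and 0.108 CPM per kb, and Dab2, Sox17, Cubn and Sox7 were at 0.0653, 0.0286, 0.0243 and 0.0237. From Pdgfra downwards, each gene overlapped its neighbour in this order, and Foxa2 had no counts. In Pim3-/- ESCs Amn was again highest, at 3.43 CPM per kb ± 0.427 (SD, n = 2), above Hnf4a at 2.08 ± 0.520 and Gata4 at 1.75 ± 0.0534, which overlapped. Below them stood Gata6 at 1.02 ± 0.504, Sox7 at 0.910 ± 0.173, Dab2 at 0.603 ± 0.510, Sox17 at 0.374 ± 0.414, Pdgfra at 0.326 ± 0.0887, Cubn at 0.238 ± 0.301 and Foxa2 at 0.0967 ± 0.0251. From Gata6 downwards no gene was separated from its neighbour beyond the spread of the libraries. The highest of these levels is far under the 458 CPM per kb of Pou5f1 in Pim3-/- ESCs.

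Most of the further primitive endoderm genes that were listed and tested also rose. This list and all lists below were chosen with earlier results of these data known. Their calls and p-values describe these libraries and are no independent support for the 10 genes. Of 12 further primitive endoderm genes 9 were tested, and 8 rose and none fell at an adjusted p under 0.05 (edgeR's test), beside 17.6% and 16.2% of all tested genes that were called higher and lower. Their median log2 fold change was 2.21. Pth1r, the receptor through which parathyroid hormone-related peptide promotes parietal endoderm, was counted 6 and 8 times in WT against 149 and 133 times in Pim3-/- ESCs and rose by 3.98 on the log2 scale (SE 0.39, adjusted p = 0.00287 in edgeR's test). Klb, a coreceptor of endocrine FGFs, rose by 3.79 (adjusted p = 0.0052 in edgeR's test), from 2 and 4 counts to 49 and 58. Fgfr2, an FGF receptor enriched in primitive endoderm, had a log2 fold change of -0.24 (SE 0.31, adjusted p = 0.567 in edgeR's test), or 0.20 scaled by library totals. Aqp8, a water channel named after its values were seen, had no counts in WT ESCs but 40 and 9 in the Pim3-/- clones. Against 3 counts per WT library its mean was 6.39-fold higher, leaving out the counting error of the clones. This value was 10.4 with Pim3-/- replicate 1 alone and 2.42 with replicate 2 alone. Without WT replicate 1 or WT replicate 2 the number that rose was 2 and 3, in fits where 2.03% and 2.95% of all tested genes were called higher, and with at least 10 counts asked of every library it was 3.

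Parietal endoderm genes, among them components of the thick basement membrane of the parietal yolk sac, included many that rose. Of 16 tested, 10 rose and 1 fell, beside 17.6% and 16.2% of all tested genes, with a median log2 fold change of 1.44. Col4a2, a chain of basement membrane collagen IV, was counted 110 and 123 times in WT against 1460 and 1401 times in Pim3-/- ESCs and rose by 3.29 on the log2 scale (SE 0.18, adjusted p = 0.000808 in edgeR's test). Srgn, a proteoglycan core protein, rose by 3.42 (SE 0.49, adjusted p = 0.005 in edgeR's test). Sparc, an abundant matrix protein of parietal endoderm, had a log2 fold change of -0.28 (adjusted p = 0.259 in edgeR's test) and Lamc1, a laminin chain, one of 0.17 (adjusted p = 0.53 in edgeR's test). Both were chosen after their values were seen. Tfpi, an inhibitor of coagulation, fell by 0.63 on the log2 scale (adjusted p = 0.0221 in edgeR's test), and stood at -0.18, not called, when scaled by library totals. With 1 library left out, the median log2 fold change of the list lay 1.34 to 1.54 above that of all tested genes.

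Many secreted products of mature visceral endoderm had few counts. Of 19 visceral endoderm genes 10 were tested, and 2 rose and 1 fell, a share near the 17.6% and 16.2% of all tested genes, with a median log2 fold change of 0.68. Afp, the alpha-fetoprotein gene, had 5, 2, 3 and 2 counts in WT replicates 1 and 2 and Pim3-/- replicates 1 and 2, and Ttr, the transthyretin gene, 0, 0, 1 and 2. Apob, the main apolipoprotein of lipoprotein particles, had 5, 4, 4 and 8 counts, and Cer1, a Nodal and BMP antagonist of the anterior visceral endoderm, none. These 4 genes were named after their values were seen, and at these counts a difference was not detectable. Mttp, which loads lipid onto apolipoprotein B, rose by 1.34 on the log2 scale (adjusted p = 0.00857 in edgeR's test). Lefty1, a Nodal antagonist also made by ESCs, rose by 2.17 (adjusted p = 0.014 in edgeR's test), at 84 and 109 counts in WT against 278 and 802 in Pim3-/- ESCs. Spink1, a protease inhibitor, fell by 2.48 (adjusted p = 0.00643 in edgeR's test). Scaled by library totals, 6 of the 10 rose, beside 35.8% of all tested genes. With 1 library left out, the median log2 fold change of the list lay 0.311 to 0.785 above that of all tested genes.

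**Figure D4:**
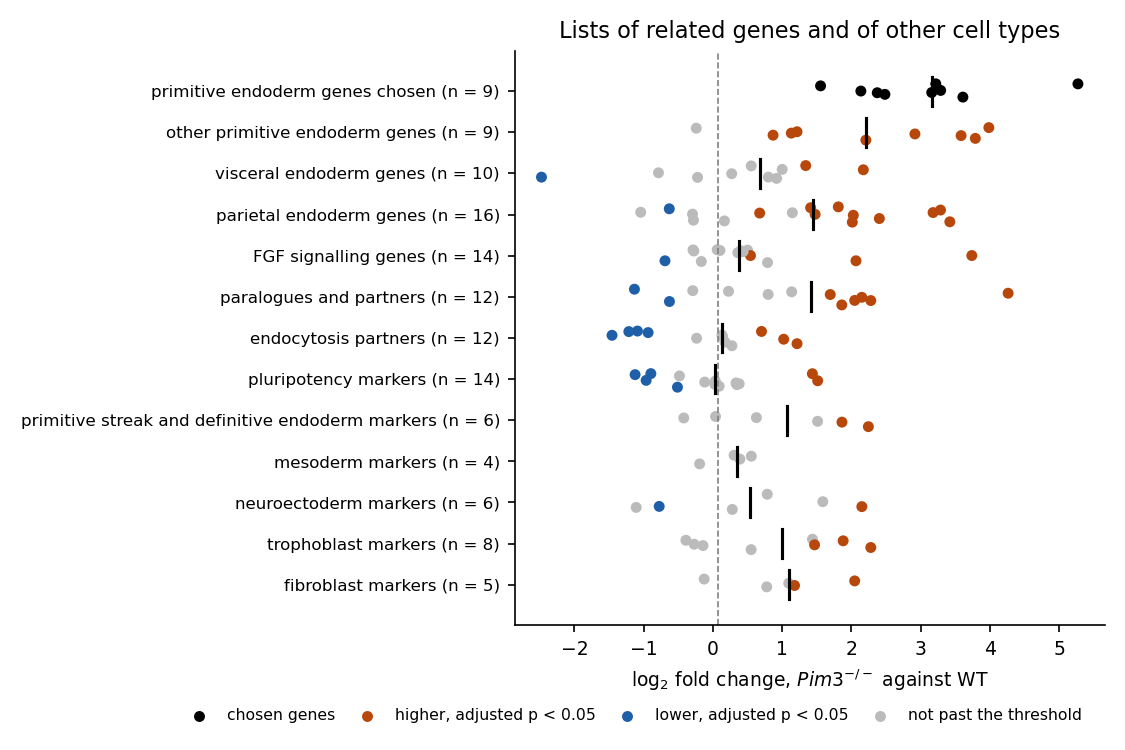
Log2 fold change of every tested gene in each list, 1 point per gene, with the median as a black bar and the median of all tested genes (0.07) as a dashed line; red points rose and blue points fell at an adjusted p under 0.05 in edgeR's test, grey points did neither, and the chosen primitive endoderm genes are black because their calls are not shown. The medians are 3.16 for the chosen genes, 2.21 for further primitive endoderm genes, 1.44 for parietal endoderm genes and 0.68 for visceral endoderm genes.

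FGF signalling is the input that directs cells to the primitive endoderm. Of 14 tested genes 3 rose, a share near the 17.6% of all, and 1 fell, beside 16.2% of all, with a median log2 fold change of 0.38. Fgf4, the ligand, had a log2 fold change of 0.50 (SE 0.19, adjusted p = 0.078 in edgeR's test), while Fgfr1, the receptor through which it mainly acts in early lineages, rose by 0.54 (SE 0.16, adjusted p = 0.0364 in edgeR's test). Fgfr3 was counted 20 and 16 times in WT against 417 and 198 times in Pim3-/- ESCs and rose by 3.74 (SE 0.45, adjusted p = 0.00372 in edgeR's test). Spry4, a feedback inhibitor induced by ERK, rose by 2.07 (adjusted p = 0.00263 in edgeR's test), and Mapk3, which encodes ERK1, fell by 0.69 (adjusted p = 0.0169 in edgeR's test), but stood at -0.24 and was not called when scaled by library totals. Scaled by library totals 9 of the 14 rose, beside 35.8% of all, and none fell. With 1 library left out, the median log2 fold change of the list lay 0.159 to 0.310 above that of all tested genes.

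Relatives and partners of the 10 genes moved in both directions. Of 12 tested, 6 rose and 2 fell, beside 17.6% and 16.2% of all tested genes. Foxa1, which shares its DNA-binding domain with Foxa2, rose from 1 and 3 counts to 57 and 44 (adjusted p = 0.005 in edgeR's test), a ratio of pooled counts of 20.1 (95% exact interval 7.62 to 75.2, counting error only). Zfpm1, a FOG cofactor of GATA proteins, rose by 1.86 on the log2 scale (SE 0.29, adjusted p = 0.00562 in edgeR's test). Gata3, a GATA factor of trophoblast, rose by 2.28 (adjusted p = 0.0187 in edgeR's test), and Pdgfrb, the second PDGF receptor, by 2.05 (adjusted p = 0.00338 in edgeR's test). Sox18, the third SOXF gene, had a log2 fold change of 0.80 (SE 0.43, adjusted p = 0.187 in edgeR's test). Pdgfa, the ligand that acts on PDGFRA in the early embryo, fell by 0.63 (adjusted p = 0.0371 in edgeR's test), and was at -0.18 and not called when scaled by library totals. Dab1, the neuronal relative of Dab2, fell by 1.13 (adjusted p = 0.00515 in edgeR's test). With at least 10 counts in every library the number that rose was 4. With 1 library left out, the median log2 fold change of the list lay 0.873 to 1.76 above that of all tested genes.

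The endocytic machinery that works with Amn, Cubn and Dab2 did not move as a block. Of 12 genes, all tested, 3 rose and 4 fell, beside 17.6% and 16.2% of all tested genes, with a median log2 fold change of 0.13. Lrp2, which encodes megalin, the receptor that acts together with cubilin, rose by 1.21 (SE 0.25, adjusted p = 0.0121 in edgeR's test), from 120 and 179 counts to 503 and 363. Myo6, a myosin of endocytic vesicles, rose by 1.02 (adjusted p = 0.0284 in edgeR's test). The clathrin light chain genes Cltb and Clta fell by 1.46 and 1.22 on the log2 scale (adjusted p = 0.00443 and 0.00794 in edgeR's test). Scaled by library totals 6 rose, beside 35.8% of all tested genes, and 3 fell. With 1 library left out, the median relative to all tested genes was -0.13 to 0.0303.

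Some pluripotency genes and markers of other cell types also differed between the groups, and their part in the results above was not tested. The median log2 fold change was 0.03 for pluripotency genes, 1.07 for primitive streak and definitive endoderm markers, 1.09 for fibroblast, 0.99 for trophoblast, 0.53 for neuroectoderm and 0.35 for mesoderm markers. Of 14 pluripotency genes 2 rose and 4 fell, beside 17.6% and 16.2% of all tested genes. Their summed level was 6978 to 7167 CPM in WT and 5686 to 5773 CPM in Pim3-/- ESCs with TMM scaling. The TMM factors were 0.828 and 0.883 in the WT libraries against 1.17 and 1.17 in the Pim3-/- libraries. Scaled by library totals, the sum was instead higher in both Pim3-/- libraries than in either WT library. Pou5f1 fell by 1.12 on the log2 scale (adjusted p = 0.00993 in edgeR's test). Nanog, the antagonist of the primitive endoderm fate, fell by 0.90 (SE 0.20, adjusted p = 0.0155 in edgeR's test), and stood at -0.45, not called, when scaled by library totals. For Pim3-/- ESCs the paper reports the opposite for Nanog, upregulated by qPCR and western blot, and an undisrupted expression of Oct4 by qPCR. The cause of this difference from the counts was not tested. Utf1, a chromatin factor of ESCs that was not called with library totals, fell by 0.97 (adjusted p = 0.0209 in edgeR's test). Klf4 and Tbx3, which support self-renewal, rose by 1.44 and 1.51 (adjusted p = 0.00369 and 0.00369 in edgeR's test). Scaled by library totals 5 of the 14 rose, beside 35.8% of all tested genes, and 1 fell. With 1 library left out, the median relative to all tested genes was -0.21 to 0.13.

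Among primitive streak and definitive endoderm markers, which share Sox17 and Foxa2 with the primitive endoderm, 2 of 6 tested genes rose and none fell. These were Eomes, a T-box factor, by 2.24, and Cxcr4, a chemokine receptor, by 1.86 (adjusted p = 0.0072 and 0.0127 in edgeR's test). Of all tested genes 17.6% rose and 16.2% fell, the shares to set beside the counts of every list in this paragraph. The defining genes T and Mixl1 stayed at 5 to 14 and 6 to 8 counts in all libraries. The 9 listed genes summed to 7.15 to 9.13 CPM in WT and 18.8 to 32.3 CPM in Pim3-/- ESCs. Of fibroblast markers, which share Pdgfra, 2 of 5 tested rose, Pdgfrb and Twist1, and the 11 listed genes summed to 448 to 513 CPM in WT and 646 to 1002 CPM in Pim3-/- ESCs, mostly from Fn1. The fibroblast genes Lum, Dcn and Col3a1 had at most 1 count in any library. Col1a1, a chain of collagen I, had 33 and 38 counts in the WT libraries, then 140 and 52 in the Pim3-/- clones (log2 fold change 1.09, adjusted p = 0.118 in edgeR's test). Counts in WT replicates 1 and 2 and Pim3-/- replicates 1 and 2 were 1, 3, 30 and 3 for Col1a2, the other chain, and 1, 2, 13 and 8 for Acta2, smooth muscle actin. Of trophoblast markers 3 of 8 tested rose (146 to 147 CPM in WT, 129 to 157 in Pim3-/- ESCs, over 11 genes), among them Esx1, and Cdx2 and Elf5 had at most 12 counts in any library. Of neuroectoderm markers 1 of 6 tested rose and 1, Tubb3, fell (not called with library totals), with sums of 132 to 140 CPM in WT and 80.1 to 99.3 CPM in Pim3-/- ESCs over 9 genes. All sums in this paragraph depend on the TMM scaling. By library totals the trophoblast sum was higher in both Pim3-/- libraries than in either WT library. The neuroectoderm sum of Pim3-/- replicate 1 was then close to that of the WT libraries. With 1 library left out, the medians relative to all tested genes were 0.597 to 1.14 for streak and 0.626 to 1.003 for fibroblast markers. They were 0.549 to 0.954 for trophoblast and 0.00625 to 0.629 for neuroectoderm markers. Of 4 tested mesoderm markers none was called, and the 8 listed genes summed to 55.2 to 65.2 CPM in WT and 77.1 to 81.6 CPM in Pim3-/- ESCs. Nearly all of this was Tcf15, named after its values were seen, which was not called. It stood at 63.6 and 52.8 CPM in WT against 78.6 and 73.8 CPM in Pim3-/- ESCs.

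The genes whose levels followed the mean course of the 9 tested genes most closely over the 4 libraries were Gm48754, Gm11546, Duxf3, Fam83h and Gm11290. Their Euclidean distance from that course was 0.108 to 0.154 on a centred log2 scale, against 0.527 for Amn, the nearest of the 9 themselves, and 1.57 for Cubn, the farthest. Duxf3, the mouse Dux gene of the 2-cell stage, was counted 3 and 5 times in WT against 81 and 37 times in Pim3-/- ESCs. A likeness over 4 libraries is a description and says nothing of shared control.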

How the data were processed

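RNA-seq counts of 2 WT and 2 Pim3-/- ESC libraries were analysed. The authors deposited raw counts per gene, without normalization. The paper names Cutadapt, Hisat2, mm10 and Ensembl genes, and the submitters' processing notes name Trim Galore, STAR, featureCounts and GRCm38. Versions, strand setting and the treatment of reads with several locations are not given in the sources used here. The counts of transposable elements were not used.

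With edgeR 4.0.16, low genes were removed by filterByExpr at a minimum count of 10 and a total of 15, leaving 18444 of 55418 genes, and the rest were scaled by TMM factors and compared with edgeR's quasi-likelihood test in R 4.3.3, with Benjamini-Hochberg adjustment over all tested genes. "EdgeR's test" in the text is this test, and a gene rose or fell if its adjusted p was under 0.05. The paper calls the WT libraries separate biological samples and the Pim3-/- libraries separate clones, and how the WT samples were separated is not given in the sources used here, so p-values measure the spread between these libraries. SDs are of 2 libraries, and with 2 against 2 an exact permutation test of a single value could not pass 0.05, so none is given. A count of 0 allows 3 counts, which is 0.112 to 0.156 CPM. Exact intervals are Clopper-Pearson intervals. Exon lengths and gene positions are from GENCODE M21 (GRCm38). Figures were drawn with matplotlib 3.10.9 in Python 3.11.15, and the methods were tested on simulated counts. With 2 against 2 simulated libraries, 35 of 100 genes changed 2-fold and 86 of 100 changed 4-fold were recovered. Of 127 calls 6 were false. A gene that was not called may therefore still differ. The simulation changed far fewer genes than were called here and gave both groups the same spread. The real Pim3-/- libraries were less alike than the WT libraries (log2 CPM correlation 0.973 against 0.994). Its share of false calls may therefore not hold for the real libraries.

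The 10 genes and all lists were chosen with earlier results of these data known. Besides the 10 genes, Pim3 and 11 fixed names, genes are named if among the up to 2 higher and 2 lower genes with the largest called change in a list at a mean of at least 0.5 CPM, or among the 5 with the nearest course, and others are marked as chosen after their values were seen or are defining markers of a list. Some genes that this rule names are not reported here. Alternatives were DESeq2 size factors, library totals, no filter, DESeq2 1.42.0 with its Wald test, a filter of 10 counts on every library, a replicate block and the omission of each library, where the lone library is assumed to vary like the other group.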

Additional observations from a re-analysis of the deposited data

How the results depend on the processing

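The 9 tested primitive endoderm genes kept positive log2 fold changes under all alternatives that could test them. Their median lay 3.09 above that of all genes, 2.01 to 3.58 with 1 library left out, and 2.39 with at least 10 counts in every library, where only 5 of the 9 were tested. Over all genes, 3246 were called higher, 2987 lower and 1562 higher by at least 3-fold. Library totals gave 6594, 1094 and 2757, and the filter on every library 768 at least 3-fold higher. With 1 library left out the ranges were 402 to 5393, 373 to 5255 and 384 to 1941, in fits with 1 residual degree of freedom.

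Numbers called in the lists moved as follows. With library totals, 6 visceral endoderm, 9 FGF, 6 endocytosis, 5 pluripotency, 1 mesoderm, 3 neuroectoderm and 4 fibroblast genes rose, and 0 parietal endoderm, 0 FGF, 1 relative or partner, 1 pluripotency and 0 neuroectoderm genes fell. With at least 10 counts in every library 3 further primitive endoderm genes rose and 1 relative or partner fell. Neuroectoderm genes that fell numbered 2 with DESeq2 size factors, the DESeq2 Wald test, the replicate block and no filter, where 2 rose. With 1 library left out, between 2 and 8 further primitive endoderm genes rose and 0 to 1 fell, 0 to 5 visceral rose and 0 to 1 fell, 6 to 12 parietal rose and 0 to 3 fell, 2 to 7 FGF genes rose and 0 to 3 fell, 2 to 7 relatives and partners rose and 0 to 3 fell, and 0 to 5 endocytosis genes rose and 1 to 5 fell. Likewise 0 to 4 pluripotency genes rose and 0 to 5 fell, 1 to 3 streak and definitive endoderm, 0 to 2 mesoderm, 0 to 3 neuroectoderm, 0 to 4 trophoblast and 1 to 5 fibroblast markers rose, and 0 to 2 neuroectoderm and 0 to 2 trophoblast markers fell. The Pim3-/- libraries were less alike than the WT libraries (log2 CPM correlation 0.973 against 0.994). Fits without 1 WT library take their spread from the Pim3-/- pair, and fits without 1 Pim3-/- library from the WT pair. The part of this in the numbers called was not tested, nor was any other cause.

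Signs changed for values near 0. The median of the endocytosis genes relative to all genes, 0.07, was -0.17 without a filter and -0.13 to 0.0303 with 1 library left out, and that of the pluripotency genes, -0.04, was 0.0528 with at least 10 counts in every library and -0.21 to 0.13 with 1 library left out. Pim3 was at 0.19 and Fgfr2 at 0.20 with library totals, and Fgfr2 at -0.70 to 0.0717 with 1 library left out. Same-numbered libraries deviated with a correlation of 0.0306 and share only a number. With a replicate block 3403 genes were called higher and 3272 lower.

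All 10 genes have low counts, so their levels rest on at most 305 counts in a library, and differences for Foxa2 were limited by depth.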
